A study of Mus musculus with 2 samples.

Results

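The 6 CXC chemokine genes Cxcl1, Cxcl2, Cxcl9, Cxcl10, Cxcl16 and Pf4, chosen by name from the 32285 genes of the count matrices, were followed across the cell classes of the mouse ankle synovium at steady state and after macrophage depletion. All 6 had at least 1 UMI (a counted RNA molecule) in each of the 2 libraries. The animals were bone marrow chimeras made from CD45.1 B6 donors and CD45.2 B6 hosts, with the ankle kept out of the radiation field, so that CD45.2 marks host cells and CD45.1 marks cells of the donor marrow. The steady-state library came from chimeras with no treatment. The day 7 library came from chimeras taken 7 days after 200 µL of clodronate liposomes, which kill phagocytes that ingest them, given behind the eye. Both were made by CITE-seq, which counts a cell's RNA together with barcoded antibodies on its surface, from live synovial cells in a sort that kept CD45+ CD11b+ cells and left out those stained for CD177, Ly6C, MHC class II, CD64, SiglecF or Ly6G. The labels give no ages and no number of pooled animals, and with 1 library per group no difference between the groups has a replicate check. Every interval below is a 95% interval for counting error alone.

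CXC chemokines are small secreted or shed proteins that steer leukocytes through G protein-coupled receptors. Cxcl1 and Cxcl2 carry the ELR motif and attract neutrophils through CXCR2, and both are early targets of NF-kB in stimulated macrophages and stromal cells. Cxcl9 and Cxcl10 are induced by interferons and attract T cells and NK cells through CXCR3. Cxcl16 is made as a transmembrane protein that binds CXCR6 and can be cut from the surface by the proteases Adam10 and Adam17. Pf4 encodes platelet factor 4, named for platelet granules, and is also transcribed by several tissue macrophage populations.

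Of the 6 genes, 5 lie on mouse chromosome 5 (GRCm38, the build called mm10). Pf4 (ENSMUSG00000029373) spans chr5:90772435-90773383, Cxcl1 (ENSMUSG00000029380) chr5:90891245-90893121 and Cxcl2 (ENSMUSG00000058427) chr5:90903899-90905938, all on the plus strand. Cxcl9 (ENSMUSG00000029417) spans chr5:92321331-92328079 and Cxcl10 (ENSMUSG00000034855) chr5:92346638-92348889, both on the minus strand. Cxcl16 (ENSMUSG00000018920) lies on chromosome 11, at chr11:70454389-70459984. Upstream sequence from RefSeq (GRCm38.p6) matched 5 of the 6 genes by symbol. The bases before the start site are shown for Cxcl1 and Cxcl2, since most macrophages with Cxcl1 also had Cxcl2, though few fibroblasts with Cxcl1 did. Upstream bases are also shown for Cxcl10, whose cells carried another set of genes, and for Pf4, which had neither motif. The printed bases number 250 for Cxcl10 and 120 for each of Cxcl1, Cxcl2 and Pf4. They are written 5′ to 3′ on the strand of the gene, for chr5:90891125-90891244 (plus strand), chr5:90903779-90903898 (plus), chr5:92348890-92349139 (minus) and chr5:90772315-90772434 (plus). Capitals mark matches on either strand to GGGNNNTTCC, the NF-kB pattern searched, or to GAAANNGAAA, a pattern of interferon-stimulated response elements.
Cxcl1: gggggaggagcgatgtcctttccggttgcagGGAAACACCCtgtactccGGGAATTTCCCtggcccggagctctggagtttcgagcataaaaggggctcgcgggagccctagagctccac
Cxcl2: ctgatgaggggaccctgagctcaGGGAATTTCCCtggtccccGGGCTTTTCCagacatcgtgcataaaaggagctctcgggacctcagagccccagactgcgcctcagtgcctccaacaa
Cxcl10: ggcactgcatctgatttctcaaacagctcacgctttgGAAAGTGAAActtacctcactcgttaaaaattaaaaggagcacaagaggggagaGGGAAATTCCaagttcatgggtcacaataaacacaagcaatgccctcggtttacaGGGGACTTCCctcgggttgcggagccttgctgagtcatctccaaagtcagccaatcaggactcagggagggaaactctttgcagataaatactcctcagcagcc
Pf4: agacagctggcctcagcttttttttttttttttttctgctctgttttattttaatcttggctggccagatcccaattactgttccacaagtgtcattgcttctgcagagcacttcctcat
In the 250 bases before the start, the NF-kB pattern covered 2 stretches in each of Cxcl1, Cxcl2 and Cxcl10, where overlapping matches on both strands count as 1 stretch, and the interferon pattern matched once, in Cxcl10. The stretch GGGAATTTCCC stood in both Cxcl1 and Cxcl2. Neither pattern matched in Cxcl9 or Pf4. Among 32851 promoters of the same length in the table, 4.65% held the NF-kB pattern and 2.98% the interferon pattern. A match describes letters and was not tested as a binding site.

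After filtering, 1630 steady-state cells (17060676 UMIs, median 9558.5 per cell) and 1200 day 7 cells (10824984 UMIs, median 8309) remained, and the libraries shared 0 cell barcodes. Cells were put into marker gates, classes set by the summed UMIs of a few defining genes that include no chemokine. The macrophage gate (C1qa, C1qb, C1qc) held 957 cells (58.7%) at steady state and 173 (14.4%) at day 7. The Aqp1 Fxyd2 gate, named after its 2 genes, held cells below the C1q threshold, 96 and 14. The class II gate held 182 and 114, the classical monocyte gate (Ly6c2, Ccr2, Vcan) 187 and 565, the Ly6C-low monocyte gate 107 and 134, the granulocyte progenitor gate 5 and 142, and the fibroblast gate 64 and 16. The antibodies, which the gates did not use, differed between the classes: the median Tim4 count per cell was 49 and 13 in the macrophage gate and at most 2.5 in the Aqp1 Fxyd2, class II and both monocyte gates, the median Ly6C count was 49 and 55 in the classical gate, and the median MHC class II count was 114 and 20 in the class II gate. They did not mark 1 class each: at day 7 the median Ly6C count was 28.5 in the class II and 17.5 in the Ly6C-low gate, and at steady state the median MHC class II count was 55 in the Aqp1 Fxyd2 gate. Antibody counts were not scaled between libraries. The median CD11b count was 407 and 103 in the macrophage, 338 and 130 in the class II and 301 and 107 in the classical gate. The paired antibody values therefore compare gates within a library, not surface protein between libraries. The values for Ly6C and MHC class II stand against a sort negative for Ly6C and MHC class II. Of 10 macrophage marker genes not used by the gate, all 10 passed 20 UMIs in 1000000 (CPM) in the macrophage gate in both libraries, with 8556 and 7877 CPM summed, against 30.1 to 677 CPM in the other gates named here.

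Over all cells, 4 of the chemokines were lower by more than 2-fold at day 7. Pf4 went from 1970 CPM at steady state to 464 at day 7 (log2 ratio -2.09, -2.13 to -2.04), Cxcl1 from 100.1 to 18.9 (-2.40, -2.62 to -2.19), Cxcl2 from 1279 to 441 (-1.54, -1.58 to -1.49) and Cxcl16 from 80.4 to 26.9 (-1.58, -1.77 to -1.40). Cxcl10 went from 32.8 to 27.0 CPM (-0.28, -0.49 to -0.07). Cxcl9 stayed under 2 CPM in both libraries and was left out of counts of calls. Thus 4 of the 5 chemokines with at least 20 CPM in a library were lower by more than 2-fold, where 10.6% of all genes past that minimum were. With each gate given the same share of the UMIs in both libraries, 1 of 5 was lower by more than 2-fold: the log2 ratio became 0.30 for Pf4, 0.07 for Cxcl16, -0.18 for Cxcl1 and -0.32 for Cxcl2, and that of Cxcl10 became -1.43.

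**Figure D1:**
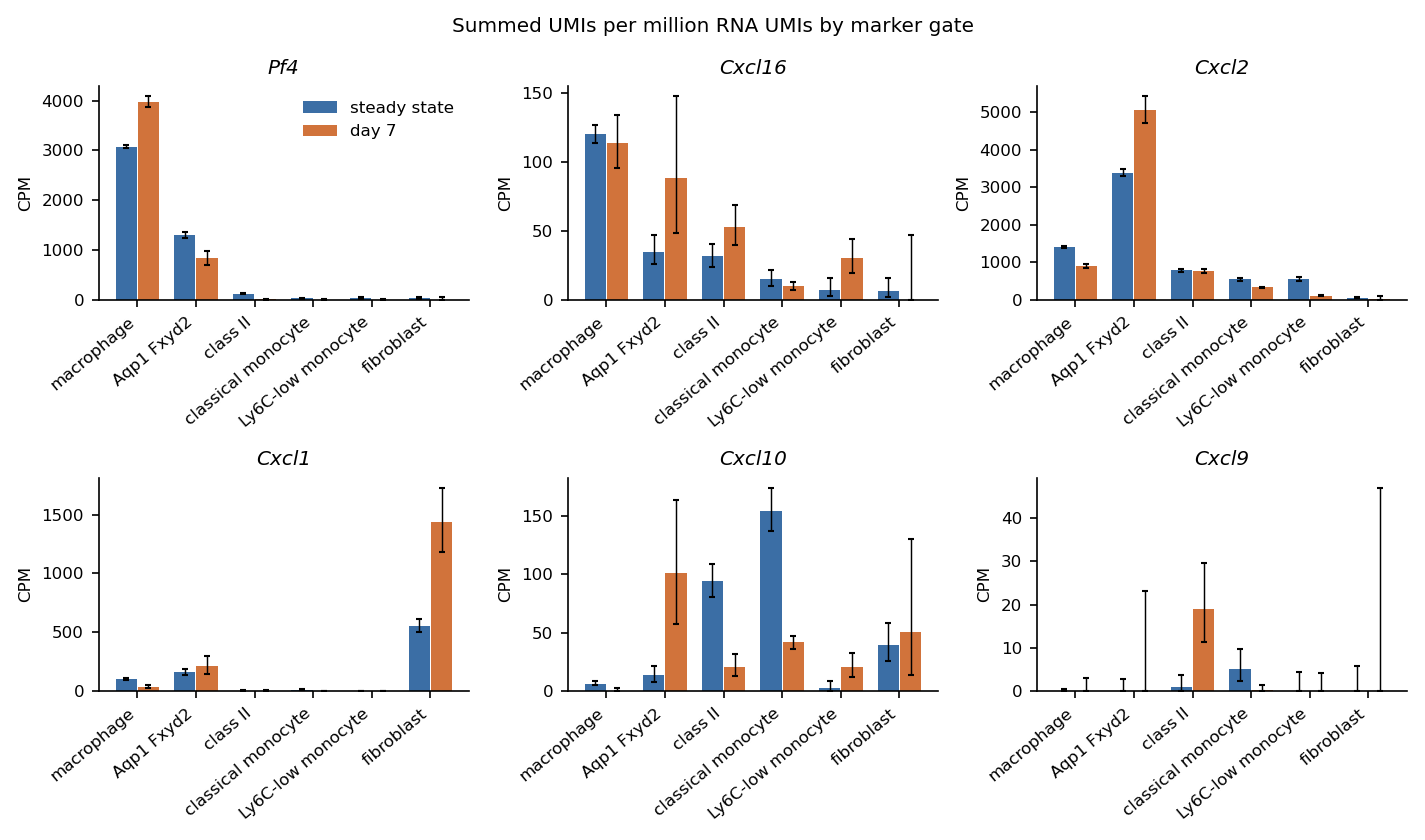
Level of each chemokine (summed UMIs per 1000000 RNA UMIs, CPM) in 6 marker gates at steady state and day 7, with 95% Poisson intervals for counting error as bars, and a scale of its own for each gene. Pf4 stood at 3077 and 3977 CPM in the macrophage gate and at most 125 CPM in the gates other than these and the Aqp1 Fxyd2 gate, while Cxcl10 was highest in the classical monocyte gate at steady state (154 CPM).

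Pf4 was the chemokine most tied to macrophages. The macrophage gate held 93.6% of all Pf4 UMIs at steady state (31476 of 33614; 93.4% to 93.9%) and 96.4% at day 7 (4841 of 5024; 95.8% to 96.9%), and together with the Aqp1 Fxyd2 gate 98.8% and 99.0%. In the macrophage gate 91.1% of steady-state cells and 90.2% of day 7 cells had a Pf4 UMI, with medians of 15 and 16 UMIs per cell. Its level there was 3077 CPM at steady state and 3977 at day 7 (log2 ratio 0.37, 0.33 to 0.41), so the gate that held nearly all of Pf4 did not share the lower level seen over all cells. With TMM scaling, which moved every ratio in this gate by -0.16, it was 0.21, and without the 10 highest cells of each library 0.13.

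Within the macrophage gate Pf4 did not climb steadily with C1q. At steady state it was 2265 CPM in the 157 cells with 10 to 50 C1q UMIs per 10000, 4041 in the 180 cells with 50 to 100 and 3025 in the 620 cells above 100. At day 7 the same bins had 4390, 5471 and 2230 CPM. The middle bin was highest in both libraries. Cells below the median Tim4 antibody count had more Pf4 than those at or above it, 3616 against 2649 CPM at steady state and 4717 against 3413 at day 7. Host and donor macrophages had 3093 and 3472 CPM at steady state (log2 ratio -0.17, and -1.03 with unsupervised clusters in place of gates) and 3503 and 4453 at day 7. Macrophages of unassigned origin, 71 of 957 at steady state and 48 of 173 at day 7, are in neither group here or below. Macrophages with an Aqp1 and Fxyd2 score past that gate's threshold, 849 of the 957 at steady state, had 3223 CPM, and the other 108 had 1465.

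The Aqp1 Fxyd2 gate was, among the gates described here, the only other one in which the median cell had Pf4. At steady state 77 of its 96 cells had a UMI, the median was 6 and the highest cell had 116, at 1308 CPM; at day 7, 9 of 14 cells had one, at 836 CPM (log2 ratio -0.65, -0.91 to -0.39). Per UMI of macrophage markers this gate held more Pf4 than the macrophage gate. The gate rule leaves out cells past the C1q threshold, which partly sets a low marker level in advance. The source of this Pf4 was not tested. There were 1.94 Pf4 UMIs per UMI of the 10 macrophage markers in this gate at steady state (1.79 to 2.11) and 2.77 at day 7 (1.98 to 3.94), against 0.360 and 0.505 in the macrophage gate. Of these cells 71 of 96 were donor and 24 host.

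In the monocyte and fibroblast gates Pf4 was a scatter of 1 or a few UMIs per cell. At steady state the highest cell had 7 UMIs in the classical, 3 in the Ly6C-low and 2 in the fibroblast gate. In the Ly6C-low gate 14 of the 20 steady-state cells with Pf4 had exactly 1 UMI. In the classical monocyte gate 21.4% of 187 steady-state cells had a Pf4 UMI, 33 of these 40 cells with exactly 1 UMI, and at day 7, 29 of 565 cells (5.13%) had one, each with exactly 1. The shares were 18.7% and 1.49% in the Ly6C-low monocyte gate and 29.7% (19 of 64) and 0 of 16 in the fibroblast gate, used here as a class that should lack Pf4; 0 of 16 allows a share of up to 20.6% (exact upper limit). Median depths were 8901 and 9041 UMIs per cell in the classical gate, 6065 and 6591.5 in the Ly6C-low gate and 10290.5 and 4669.5 in the fibroblast gate. The steady-state shares in both monocyte gates were no higher than in fibroblasts. Thinned to 2000 UMIs per cell, they were 5.56% in the classical, 6.12% in the Ly6C-low, 5.95% in the class II and 3.51% in the fibroblast gate (2 of 57 cells), against 80.2% in macrophages. The free RNA of the droplets was not measured, and its part in these shares was not tested. The levels were alike too, at 30.3, 33.0 and 31.5 CPM in the classical, Ly6C-low and fibroblast gates. In the same 3 gates the steady-state ratio of Pf4 to C1q UMIs was 0.353 (0.253 to 0.486), 0.397 (0.244 to 0.629) and 0.476 (0.265 to 0.829), and 0.239 in the macrophage gate; cells of the former gates hold few C1q UMIs by the gate rule. Per UMI of the 10 macrophage markers, which the gates did not use, there were 0.0640 Pf4 UMIs (0.0475 to 0.0845), 0.105 (0.0682 to 0.157) and 0.0465 (0.0281 to 0.0727), against 0.360 in the macrophage gate. The 2 measures put these gates on opposite sides of the macrophage gate. Of the 10 markers, 3, 2 and 1 reached 20 CPM in these gates at steady state, against 10 in the macrophage gate. Few of the markers thus made up much of the second denominator.

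The scattered UMIs were fewer at day 7, as was Pf4 in the library as a whole. Pf4 went from 30.3 to 5.43 CPM in the classical gate (log2 ratio -2.48, -3.19 to -1.80), from 33.0 to 2.32 in the Ly6C-low gate (-3.83, -6.95 to -1.84) and from 125 to 8.94 in the class II gate (-3.81, -4.95 to -2.86), beside -2.09 over all cells. With clusters the class II ratio was -1.78. Class II cells differed from the monocytes at steady state: 5 of 182 cells had 10 or more Pf4 UMIs, up to 50, and the 10 highest cells held 82.1% of the gate's 235 UMIs. Without them the level was 24.9 CPM. Platelet RNA was nearly absent, with 15 and 1 UMIs of Ppbp, another platelet chemokine, in the whole libraries.

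**Figure D2:**
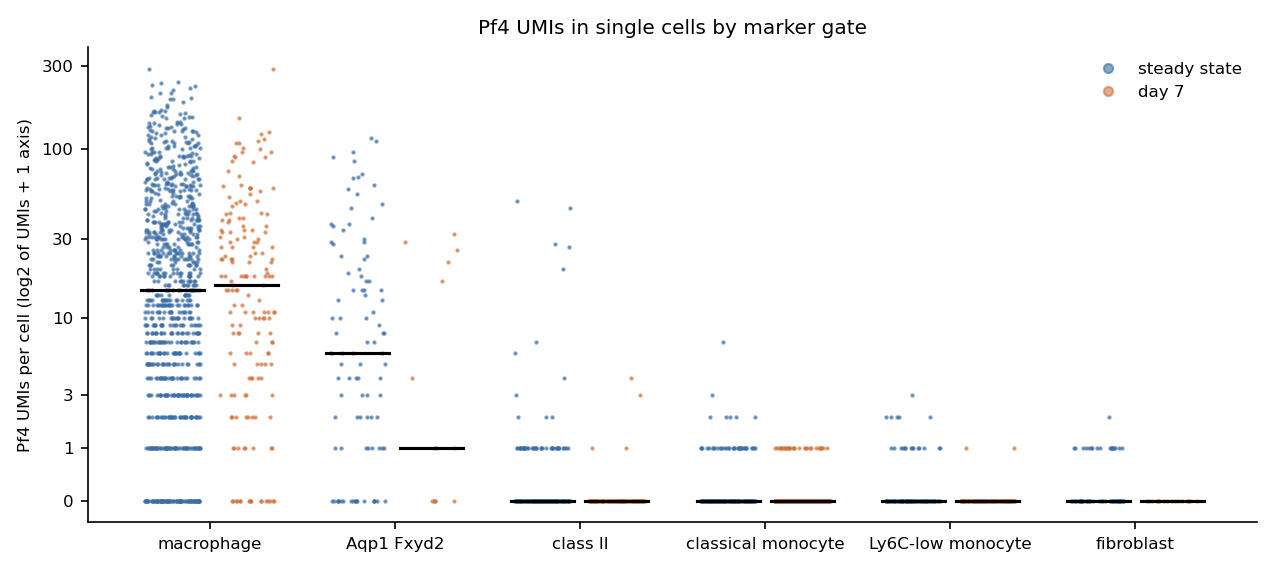
Pf4 UMIs in each cell (vertical axis, log2 of UMIs plus 1, labelled in UMIs) by marker gate and library, 1 point per cell with horizontal jitter; black lines are medians. Medians were 15 and 16 UMIs in the macrophage gate and 0 in the class II, monocyte and fibroblast gates, where at day 7 all but 2 cells with a UMI of those gates had 1.

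Cxcl16 was also a macrophage gene but a low and even one. At steady state 89.4% of its 1372 UMIs were in the macrophage gate, where 53.4% of cells had a UMI and no cell had more than 12; at day 7, 47.4% of 291 were. The 10 highest cells held 7.00% of all Cxcl16 UMIs at steady state, next to 6.84% for Pf4. Its level in macrophages was 119.95 CPM at steady state and 113 at day 7 (log2 ratio -0.08, -0.35 to 0.17). Across the C1q bins of steady-state macrophages it went from 72.9 to 86.7 to 139 CPM, and at day 7 from 58.4 to 79.3 to 190. Tim4-high cells had 140.1 CPM and Tim4-low cells 94.5 at steady state, the reverse of the order of Pf4. Host macrophages had 130.2 CPM and donor macrophages 66.1 (log2 ratio 0.98, 0.69 to 1.28; 1.80 without the 10 highest cells of each origin), and at day 7 121 and 40.2 (1.59, 0.50 to 2.95), the latter from 7 UMIs in 27 donor cells. That day 7 ratio was -0.22 with equal weight per cell and -0.75 with clusters.

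Outside macrophages Cxcl16 was higher at day 7 in the Ly6C-low gate, from 7.34 to 30.2 CPM (log2 ratio 2.04, 0.73 to 3.61). These were 6 UMIs in 5 of 107 cells and 26 UMIs in 15 of 134 cells. Mast cell and basophil markers differed as well in this gate: all 6 were at 0 UMIs at steady state, and at day 7 the 6 were detected with 165 UMIs (191 CPM), of which 158 lay in 1 cell. The 2 day 7 cells with such a UMI had no UMI of any of the 6 chemokines, and without them the Cxcl16 ratio was 2.05. It went from 31.4 to 52.7 CPM in the class II gate (0.74, 0.18 to 1.30) and from 14.9 to 9.73 in the classical gate (-0.61, -1.32 to 0.13). The transcripts of the shedding proteases Adam10 and Adam17 were both past the CPM minimum in every one of these gates, with a median log2 ratio of 1.10 in the Ly6C-low gate, where 1 of 2 was higher by more than 2-fold beside 5.43% of all genes, and 0.97 in the class II gate, where 1 of 2 was as well beside 3.78%. It was 0.54 in the classical gate and 0.28 in the macrophage gate. The medians of all genes were 0.08, 0.13, 0.14 and 0.12 in these 4 gates. Of the receptor Cxcr6, 2 UMIs were counted at steady state and 0 at day 7.

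Cxcl2 was spread over all myeloid gates, highest in the Aqp1 Fxyd2 gate. At steady state its level was 3387 CPM there (3289 to 3488), 1408 in the macrophage gate, 789.5 in the class II gate, 544 in each monocyte gate and 52.0 in the fibroblast gate, where 1 cell held 31 of 33 UMIs. At day 7 the order of the first 4 was kept, at 5065, 896, 774 and 336 CPM, with 113 in the Ly6C-low gate. A UMI was found in 48.8% of steady-state macrophages and 37.6% at day 7, against 5.63% of day 7 granulocyte progenitors (8 of 142) at a greater median depth (15376 against 6775 UMIs). Thinned to 2000 UMIs per cell, the macrophage shares were 38.8% of 883 and 31.7% of 145 cells, with 74 and 28 shallower cells left out.

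A few cells held much of it. At steady state 63 of 1630 cells, and at day 7, 22 of 1200, held 50% of all Cxcl2 UMIs. The Aqp1 Fxyd2 gate overlaps with class II cells: its 56 steady-state cells with a class II score past that gate's threshold had 4637 CPM of Cxcl2 and the other 40 had 1176. Its summed markers of cDC2, a dendritic cell type, were 11017 and 6089 CPM in the 2 libraries. They were 20153 and 7496 CPM in the class II gate and 2073 and 959 in the macrophage gate. The 6 markers include Cd74, whose part in these sums was not tested, and at day 7 Cd209a and Ccr7 had no UMI in the Aqp1 Fxyd2 gate. Of the 110 cells of the Aqp1 Fxyd2 gate, 69 fell in the class II class of the unsupervised clusters and 36 in the Aqp1 Fxyd2 class. The highest cells were in the Aqp1 Fxyd2 gate in both libraries, with 561 and 512 UMIs. The day 7 cell alone held 63.5% of that gate's 806 UMIs, so the gate's ratio (log2 0.58, 0.47 to 0.69; -0.80 with clusters) rests on it. In the Ly6C-low gate 1 cell held 224 of 445 steady-state UMIs; the gate went from 544 to 113 CPM (log2 ratio -2.27, -2.61 to -1.96), and without the 10 highest cells from 37.0 to 12.7. In the classical gate the ratio was -0.70 (-0.81 to -0.58) with all cells and 0.21 without the 10 highest. The immediate early and heat shock genes were lower too. By more than 2-fold it was 8 of 13 in the Ly6C-low gate (median log2 ratio -1.15; 4.43% of all genes), 3 of 11 in the classical gate (-0.87; 1.33%), 5 of 13 in the class II gate (-0.78; 3.43%) and 8 of 14 over all cells (-1.20; 10.6%). In macrophages it was 0 of 15, with a median of 0.07 (0.853%). The part of this shift in the Cxcl2 ratios was not tested. In macrophages the Cxcl2 ratio was -0.65 (-0.74 to -0.56), -1.20 without the 10 highest and -0.09 with clusters. In class II cells it was -0.03 (-0.16 to 0.10), and -0.91 with clusters.

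**Figure D3:**
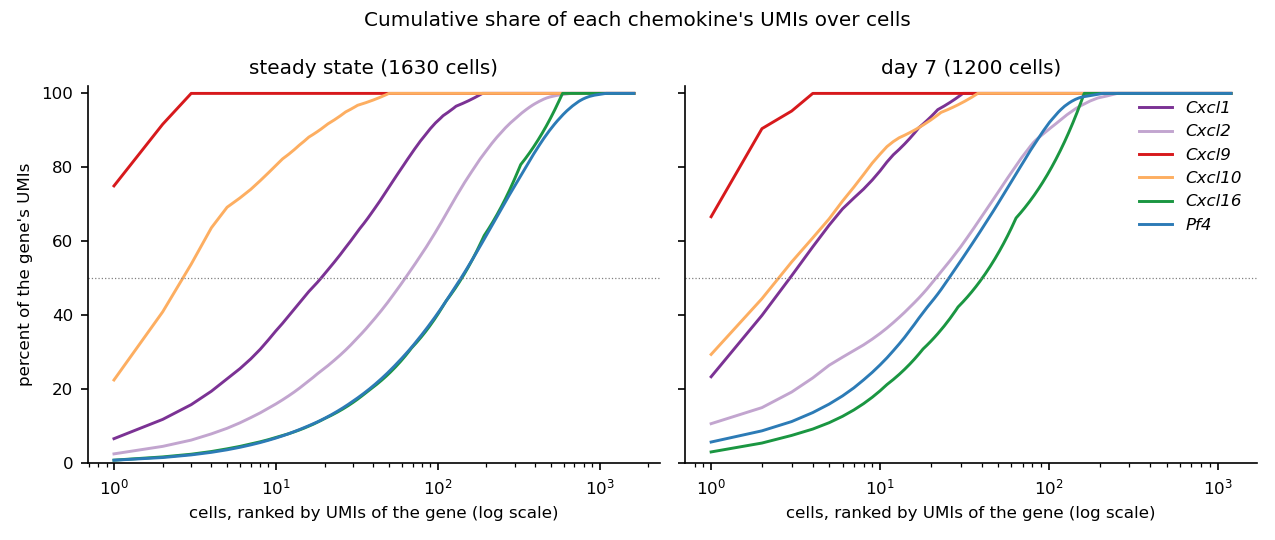
Cumulative percent of each chemokine's UMIs (vertical axis) over cells ranked by their UMIs of that gene (horizontal axis, log scale), for the 1630 steady-state and 1200 day 7 cells; the dotted line marks 50%. At steady state 50% was reached by 3 cells for Cxcl10, 19 for Cxcl1, 63 for Cxcl2, 141 for Cxcl16 and 140 for Pf4.

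Within the macrophage gate, Cxcl2 was lower in the host cells and in Tim4-high cells at steady state. Host cells had 1204 CPM and donor cells 2525 (log2 ratio -1.07, -1.12 to -1.02), and Tim4-high cells 947 against 1988 in Tim4-low cells; these splits overlap, since the median Tim4 count was 69.5 in host and 1 in donor macrophages. It was the only 1 of the 4 chemokines past the CPM minimum that was lower by more than 2-fold in host cells, where 3.40% of all genes were. The ratio was -0.95 with equal weight per cell, -0.77 without the 10 highest cells of each origin and -0.12 with clusters. At day 7 host cells had 1060 CPM and donor cells 671 (0.66, 0.38 to 0.95; -0.54 with clusters; without the 10 highest cells of each origin 0 UMIs were left in donor cells), and 1 of 4 chemokines, Cxcl16, was higher by more than 2-fold in host cells beside 12.9% of all genes. From steady state to day 7 Cxcl2 in host macrophages changed little in level (log2 ratio -0.18, -0.29 to -0.08) and in donor macrophages it went from 2525 to 671 CPM (-1.91, -2.19 to -1.65), over 164 and 27 cells. At day 7 more macrophages had no assigned origin (48 of 173) than were called donor. In host macrophages 1 of 4 chemokines (Cxcl1) was lower by more than 2-fold at day 7, with 1.27% of all genes, and in donor macrophages 2 of 4 (Cxcl1 and Cxcl2), with 7.46%.

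Cxcl1 came from fibroblasts and from a minority of macrophages. Per cell class it was highest in the fibroblast gate, at 556 CPM at steady state (499 to 617) and 1437 at day 7 (1185 to 1728; log2 ratio 1.37, 1.05 to 1.68), from 353 UMIs in 64 cells and 113 UMIs in 16. In that gate 1 of 3 chemokines past the CPM minimum was higher by more than 2-fold, where 23.6% of all genes were. Its summed fibroblast markers not used by the gate went from 3847 to 1450 CPM and its classical monocyte markers from 370 to 2175 CPM; the part of this in the Cxcl1 ratio was not tested. The highest fibroblast cell held 114 and 48 of these UMIs. By total, however, 63.4% of the 1707 steady-state UMIs were in the macrophage gate and 20.7% in the fibroblast gate, against 22.0% and 55.1% of 205 at day 7. The fibroblast gate's cells had medians of 3 and 2 CD11b antibody counts, against 407 and 103 in macrophages, although the sort was for CD11b+ cells.

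In macrophages Cxcl1 went from 105.9 CPM at steady state to 37.0 at day 7 (log2 ratio -1.52, -1.98 to -1.09). It was the 1 chemokine of 4 lower by more than 2-fold in that gate, where 0.853% of all genes were. The share of macrophages with a UMI was 13.8% and 9.25%. The ratio was -1.30 with equal weight per cell, -3.61 without the 10 highest cells and -0.87 with clusters, where the gate had no chemokine past 2-fold. In the monocyte gates Cxcl1 was nearly undetected, with 24 and 8 UMIs in the classical and 1 and 0 in the Ly6C-low gate. In the Aqp1 Fxyd2 gate it stood at 164 and 214 CPM, the latter from the 34 UMIs of a single cell.

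Most macrophages with several Cxcl1 UMIs also had Cxcl2, but not the reverse. Of the 78 steady-state macrophages with at least 3 Cxcl1 UMIs, called carriers below, 73 (93.6%) also carried at least 3 Cxcl2 UMIs, and they were 20.6% of the 355 Cxcl2 carriers. At day 7 it was 7 of 7, or 13.5% of 52. In fibroblasts it was 1 of 15 Cxcl1 carriers at steady state and 0 of 6 at day 7. Carriers were deeper: the median was 12430.5 UMIs per cell in Cxcl1 carriers of the steady-state macrophage gate and 9752 in its other cells, and 10916 against 9439 for Cxcl2. How far depth sets the overlap was not tested.

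Macrophages that carried Cxcl2 had higher levels of NF-kB early genes than the other macrophages. Genes were compared here if they had at least 20 CPM in the other cells, so that none entered through the carriers. In steady-state macrophages 6 of 13 such genes were higher by more than 2-fold in carriers and 0 lower, where 0.523% of all genes were higher; the list's median log2 ratio was 0.91 and that of all genes -0.04. Nfkbia, the NF-kB inhibitor that NF-kB induces, had 1962 CPM in carriers and 616 in other cells, Cd14, a co-receptor for lipopolysaccharide, 1080 and 597, and Ier3, an early response gene, 816 and 433. The immediate early and heat shock genes had a median of 0.56 (2 of 14 higher by more than 2-fold) and the type I interferon genes -0.06 (0 of 4). At day 7 the NF-kB median was 1.31, with 7 of 13 higher and 1 lower (background 1.37%), and the immediate early and heat shock genes had a median of 0.92, with 6 of 14 higher and 0 lower. Outside macrophages the list's median in Cxcl2 carriers varied with the gate and library. It was 1.63 at steady state and 1.32 at day 7 in the Aqp1 Fxyd2 gate, 0.32 and 1.22 in the class II gate, -0.11 and 0.92 in the classical gate, and 1.59 and 0.14 in the Ly6C-low gate, over 7 to 80 carriers; the differences between libraries were not tested. Carriers of Cxcl1 in steady-state macrophages gave a median of 1.001, with 7 of 13 NF-kB genes higher (background 0.458%), among them Nfkbia at 2260 against 1041 CPM. In the 7 day 7 macrophages with Cxcl1 the median was 0.86, and in fibroblasts with Cxcl1 1.26 at steady state and 0.26 at day 7.

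In macrophages with Pf4 or Cxcl16 the same list lay nearer to 0. At steady state its median was -0.14 for Pf4 carriers and 0.24 for Cxcl16 carriers, and at day 7 0.51 for Cxcl16 carriers. At steady state both sets of carriers were also deeper than the other cells, at medians of 10496 against 5888.5 and 13200 against 9064.5 UMIs.

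Cxcl10 came from a handful of cells. At steady state 50 cells held its 559 UMIs and at day 7, 38 cells its 292, and in each library 3 cells held 50% and the 10 highest 80.5% and 83.6%. Of the 10 highest, 5 and 6 were classical monocytes. In the classical gate its level was 154 CPM at steady state and 41.7 at day 7 (log2 ratio -1.89, -2.15 to -1.62), from 12 of 187 and 20 of 565 cells with a UMI (6.42% and 3.54%). In both libraries 2 cells held 50% of the gate's UMIs, and without the 10 highest cells the levels were 1.22 and 2.30 CPM, a log2 ratio of 0.92. With Pf4, 2 of 3 chemokines past the CPM minimum were lower by more than 2-fold in this gate, where 1.33% of all genes were. Pf4 entered this count with 53 and 29 scattered UMIs, and Cxcl10 was not lower without the 10 highest cells. That alternative cannot decide the direction, since the 10 cells were most of the 12 with a Cxcl10 UMI at steady state. At day 7 they were 10 of 20.

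In the class II gate Cxcl10 went from 93.8 to 20.9 CPM (log2 ratio -2.17, -2.90 to -1.51; -1.16 with clusters), and 1 cell held 126 of the 176 steady-state UMIs. Here too Cxcl10 and Pf4 made 2 of 4 chemokines lower by more than 2-fold, beside 3.43% of all genes. The 10 highest cells held 82.1% of the 235 steady-state Pf4 UMIs of this gate. In the Ly6C-low gate Cxcl10 went the other way, from 2 UMIs in 1 cell to 18 UMIs in 4 cells (2.45 to 20.9 CPM; log2 ratio 3.09, 1.03 to 6.25; -0.04 with clusters and 3.10 without the 2 cells with mast cell or basophil genes). There 2 of 4 chemokines were lower by more than 2-fold (Cxcl2, and Pf4 with 27 and 2 scattered UMIs), with 4.43% of all genes. Another 2 of 4 were higher (Cxcl10 and Cxcl16), with 5.43%. In the Aqp1 Fxyd2 gate Cxcl10 went from 13.7 to 100.5 CPM (2.88, 1.81 to 3.93), with 14 of the 16 day 7 UMIs in 1 cell. Cxcl10 and Cxcl16 were 2 of 5 chemokines higher by more than 2-fold, where 14.8% of all genes were. With clusters the ratio of Cxcl16 there was -0.93. In macrophages 68 Cxcl10 UMIs (6.65 CPM) were counted at steady state and 0 at day 7. With the zero set to 3 UMIs, the day 7 value was 2.46 CPM, or 2.70-fold lower. That setting takes no account of the spread between cells. The 68 UMIs lay in 16 of 957 cells, and the 10 highest held 91.2% of them. With so few such cells, and 173 macrophages at day 7, the zero cannot decide whether the level was lower.

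**Figure D4:**
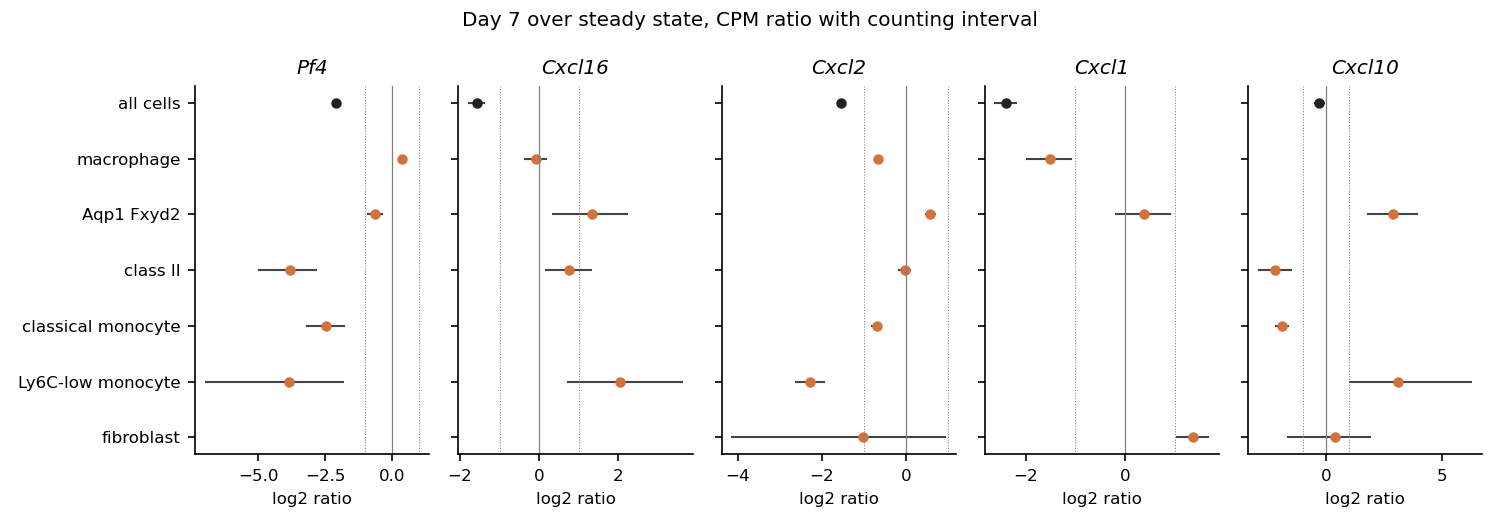
Log2 ratio of CPM at day 7 over steady state (horizontal axis, a scale of its own for each gene) with 95% counting intervals, over all cells (black) and in 6 gates (orange); points are left out where neither library reached 20 CPM or 1 had no UMI, and dotted lines mark 2-fold. Pf4 was -2.09 over all cells and 0.37 in the macrophage gate, and Cxcl10 lay on either side of 0 in different gates.

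Cells with Cxcl10 in the classical monocyte and macrophage gates had higher levels of interferon-stimulated genes than the other cells there. In the steady-state classical gate 8 cells had at least 3 Cxcl10 UMIs. In them 11 of 11 type I interferon genes with at least 20 CPM in the other 179 cells were higher by more than 2-fold than in those, with a median log2 ratio of 2.74, and 6 of 8 interferon-gamma genes were, with a median of 1.86; over all genes 6.67% were higher and the median was -0.08. The ubiquitin-like interferon product Isg15 had 1120 CPM against 118, and Irf7, a transcription factor of the interferon response, 862 against 129. At day 7, 7 carriers had 9 of 10 type I interferon genes higher, with a median of 1.90 (background 5.49%), among them Isg15 at 616 against 65.7 CPM and Rsad2, an antiviral enzyme, at 584 against 21.3. In 8 steady-state macrophages with Cxcl10, 3 of 3 were higher, with a median of 1.90 (background 3.40%). In 5 steady-state class II cells with Cxcl10, 2 of 7 were, with a lower median of 0.63 (background 8.61%). The NF-kB medians were 0.48 and 0.95 in the classical carriers of the 2 libraries and 0.10 in the macrophages. Depth was similar in classical carriers and other cells, with medians of 8827 and 8906 at steady state. All 8 and 7 classical carriers were of donor origin, as were 184 of the 187 and 528 of the 565 cells of that gate.

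**Figure D5:**
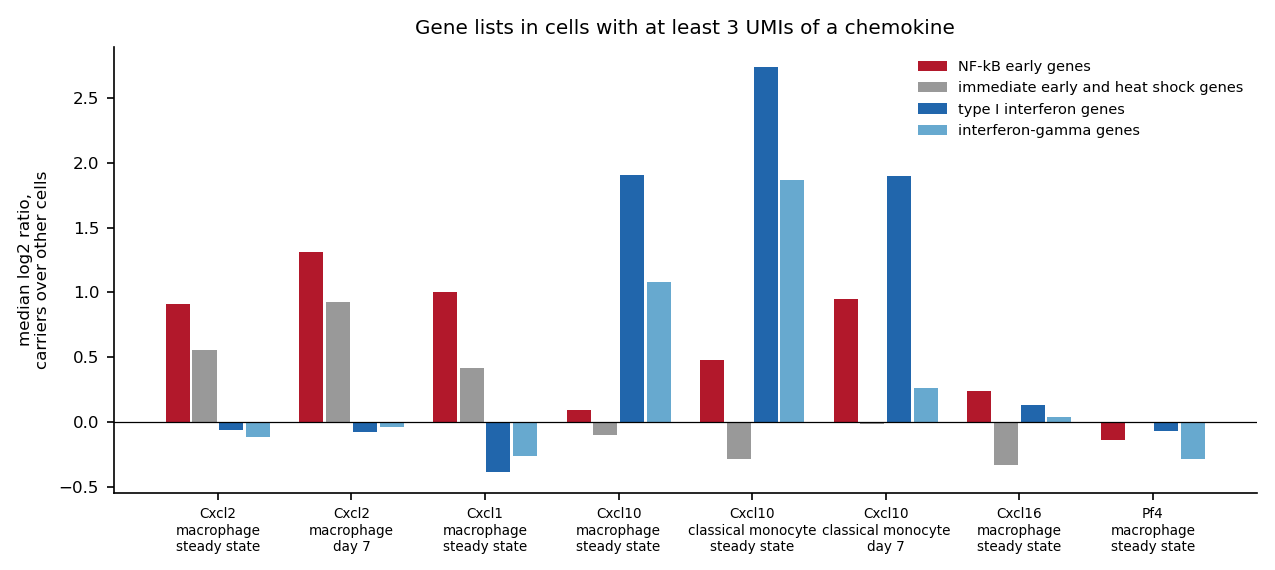
Median log2 ratio of 4 gene lists (colours) in cells with at least 3 UMIs of a chemokine over the other cells of the same gate and library (vertical axis), for 8 groups of carriers and genes with at least 20 CPM in those other cells. Type I interferon genes stood at 1.90 to 2.74 in the 3 groups shown with Cxcl10, and NF-kB early genes at 0.91 to 1.31 in the 3 with Cxcl1 or Cxcl2. Class II cells with Cxcl10, where the type I interferon median was lower, are not drawn. Day 7 macrophages with Cxcl1 and all carriers of Cxcl1 or Cxcl2 outside the macrophage gate are not drawn either. In these the NF-kB median varied and was lower in several groups.

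Over the whole classical gate, 5 of 13 type I interferon genes past the CPM minimum in either library were lower by more than 2-fold at day 7 and 0 higher, with a median log2 ratio of -0.58 beside 0.14 for all genes, of which 1.33% were lower and 2.77% higher; these sums include the carriers. Type I interferon genes were not alone in this. By more than 2-fold, beside the same 1.33% of all genes, 3 of 9 interferon-gamma genes were lower (median -0.70). So were 3 of 11 immediate early and heat shock genes (median -0.87). Over all cells, 0 of 9 type I interferon genes were lower by more than 2-fold, beside 10.6% of all genes, and the median was 0.40.

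Cxcl9 was found in 3 cells at steady state (12 UMIs) and 4 at day 7 (21 UMIs). At steady state 1 classical monocyte held 9 of them together with 103 Cxcl10 UMIs. At day 7, 2 class II cells held 14 and 5, with 0 and 3 Cxcl10 UMIs. Of the 7 cells 6 were of donor origin and 1 was unassigned. The receptor Cxcr3 had 25 and 14 UMIs.

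Of the 9 other CXC ligands listed, 8 were in the gene table and 3 reached 20 CPM in a gate. Cxcl12, which retains leukocytes through CXCR4, and Cxcl14 were fibroblast genes, at 1011 and 1357 CPM in that gate at steady state and 789 and 1259 at day 7. Cxcl3, another neutrophil chemokine, was highest in the Aqp1 Fxyd2 gate, at 82.9 and 88.0 CPM. Of 7 receptors, 3 reached 20 CPM in a gate. Cxcr4 did so in 6 gates at steady state and was highest in the Ly6C-low gate (380 and 375 CPM), the scavenging receptor Ackr3 was highest in fibroblasts (534 and 445), and Cxcr2, the receptor of Cxcl1 and Cxcl2, passed the minimum in day 7 granulocyte progenitors alone (32.6 CPM).

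Over the 11 combinations of gate and library with at least 30 cells, the genes whose log2 level ran most like that of Pf4 among 8291 compared were Fxyd2, Cd163, Herpud2, Gpr155 and F11r (Pearson r 0.98 to 0.96). Those for Cxcl10 were Il3ra, Prmt3, Ifit3, Surf1 and Nudt22 (0.90 to 0.81), for Cxcl16 Rasgef1b, Snx5, Serpinb8, Rnf150 and Sgpl1 (0.95 to 0.94), for Cxcl2 Galnt6, Cacfd1, Stk19, Dctn3 and Eif2b4 (0.96 to 0.94) and for Cxcl1 Ift43, Ube2e2, Arl4a, Pdpn and Clmp (0.98 to 0.96). Between Pf4 and Cxcl16 r was 0.73, and between Cxcl1 and Cxcl2 0.20, although they shared macrophages. Points of 1 library share its depth and free RNA, and the 5 genes were picked as the highest of many. The points are the marker gates themselves, and Fxyd2 is 1 of the 2 genes that define a gate. Fibroblasts gave only 1 point, at steady state.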

How the data were processed

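The 2 libraries, 1 per group, were deposited as whole-number counts of UMIs for every gene and antibody by barcode. The submitters' processing notes name Cell Ranger 6.1.2, the mm10 build and, without a role, Seurat 4.4.0. Barcodes passed with 500 or more RNA UMIs, 200 or more genes and no more than 10% of UMIs from mitochondrial genes (1637 of 1912 barcodes at steady state, 1210 of 1277 at day 7), and 7 and 10 Scrublet doublet calls were removed (scanpy 1.11.5).

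A cell's gate came from the summed UMIs of the gate's genes per 10000. Thresholds were 10 for the macrophage gate, 5 for Aqp1 Fxyd2, 10 for class II, 5 for classical monocytes, 3 for Ly6C-low monocytes and 20 for progenitors and fibroblasts, and were set after seeing the distributions of these scores. A cell past several thresholds went to the macrophage gate before Aqp1 Fxyd2, class II and the monocyte gates, in that order, and a monocyte to the list further above its threshold; cells with 2 or more of the macrophage, fibroblast, progenitor and lymphocyte scores were kept apart. Origin came from a mixture of 2 Gaussians fitted to the CD45.2 and CD45.1 antibodies' log2 ratio (posterior at least 0.95 or at most 0.05). The cut was lopsided, since donor cells reached a log2 ratio of 0 and host cells began at 2.37. A cell with equal counts of both antibodies was thus called donor. In the steady-state fibroblast gate (medians 0 for CD45.1 and 1 for CD45.2) 34 cells were called donor and 2 host.

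Each group's UMIs were added up and expressed per 1000000 RNA UMIs (CPM). Ratios have conditional exact Poisson intervals and shares exact Clopper-Pearson intervals (95%; scipy 1.17.1). A call is a ratio of more than 2-fold for a gene with at least 20 CPM in either group; a 0 was set to 3 UMIs as a bound. For genes in carriers of a chemokine the minimum was 20 CPM in the other cells, a choice made after seeing the data, as was leaving cells with mast cell or basophil genes out of the Ly6C-low gate. The ratio code was tested on simulated counts. With 1 library per group there is no test between groups. Free RNA in droplets was not removed. The members and gene lists were chosen with earlier results of these data known. Named genes were the 6 members, other CXC genes past 20 CPM in a gate, the 5 genes most correlated with each member on log2(CPM + 5) (ribosomal, mitochondrial, Gm and Rik genes left out), and, of each list compared in carriers, genes among the 3 with the highest CPM there. Alternatives were TMM scaling (edgeR 4.0.16), equal weight per cell, equal gate shares, no CPM minimum, Leiden clusters, and leaving out the 10 highest cells. Mitochondrial, depth, doublet, fold, gate and origin settings were changed as well.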

Additional observations from a re-analysis of the deposited data

Results flagged for a closer look

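For 2 chemokines the ratio of day 7 to steady state went past 2-fold in opposite directions in 2 gates, with each counting interval on its own side of no change. These differences between gates were not tested, since each gate has 1 library per group. Cxcl1 was higher in fibroblasts and lower in macrophages, a difference of 2.89 between the log2 ratios. Cxcl10 was higher in the Aqp1 Fxyd2 gate and lower in the class II gate (difference 5.04) and the classical monocyte gate (4.76). It was also higher in the Ly6C-low gate than these, by 5.26 against the class II gate and 4.98 against the classical gate. All the Cxcl10 values rest on few cells: the day 7 UMIs were in 2 cells of the Aqp1 Fxyd2 gate and 4 of the Ly6C-low gate.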

How the results depend on the processing

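Of 351 alternative log2 ratios of single chemokines, 251 stayed within the counting interval of the main value 32 had the opposite sign, and 7 of these were ratios past 2-fold. Of 60 shares thinned to 4000 in place of 2000 UMIs per cell, 15 moved past their interval. With equal gate shares Pf4 and Cxcl16 over all cells came to 0.299 and 0.074. With Leiden clusters for gates, Cxcl16 in the Aqp1 Fxyd2 class came to -0.93, Cxcl10 in the Ly6C-low class to -0.044 and Cxcl16 in host over donor macrophages at day 7 to -0.75; equal weight per cell gave -0.22 for the last. Without the 10 highest cells Cxcl10 in classical monocytes came to 0.92.

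The number of chemokines lower by more than 2-fold over all cells was 4, 2 at a 3-fold limit and 1 with equal gate shares. In the macrophage gate it was 1, 2 with no CPM minimum, at a 1.5-fold limit or without the 10 highest cells, and 0 at 3-fold or with clusters. In classical monocytes it was 2, 4 with no CPM minimum and 0 without the 10 highest cells; in Ly6C-low monocytes 2, and 1 without the 10 highest cells. In host over donor macrophages at steady state it was 1, 2 with no CPM minimum, and 0 with equal weight per cell, at 3-fold or without the 10 highest cells; with clusters it stayed 1, but with Pf4 (-1.03) in place of Cxcl2 (-0.12). Leaving out 10 cells removes a larger share of a small group.

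The share of Pf4 UMIs in the macrophage gate was 93.6% at steady state, 93.2% without the 10 highest cells, 95.3% with thresholds halved, 91.3% with thresholds doubled and 61.2% with clusters. At day 7 it was 96.4%, 95.04% without the 10 highest cells, 91.3% with thresholds doubled and 55.5% with clusters. Clusters put 766 of the gate's 1130 cells in the macrophage class, 245 in the Aqp1 Fxyd2 class and 111 in the class II class.

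With the 20 CPM minimum met in either group, so that genes could enter through the carriers, the medians in Cxcl2 carriers of steady-state macrophages (NF-kB genes) and in steady-state classical Cxcl10 carriers (type I interferon genes) were 1.29 and 3.25 in place of 0.91 and 2.74.

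No paired analysis was possible because each group has 1 library. In gates of 14 or 16 cells, and for Cxcl9 in any gate, depth and cell number limit every ratio.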
